A study of Mus musculus with 6 samples.

Results

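Pentraxin 3 (Ptx3) and 9 secreted cytokines and chemokines (Il6, Lif, Ccl2, Ccl7, Cxcl1, Cxcl12, Il33, Csf1 and Il34) were followed in cultured mouse cerebellar granule neurons (CGNs) treated with the EZH2 inhibitor GSK-126. Members were taken by gene symbol, as 10 of the 55341 symbols in the count tables, and all 10 were present and passed the filter on low counts. They had been proposed with earlier results of this same comparison in view, so their differences between GSK-126 and DMSO are given as a description of chosen genes and not as a test of them.

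Pentraxin 3 is a long pentraxin, a soluble pattern recognition protein that binds complement component C1q and is made by fibroblasts, endothelial cells, astrocytes and myeloid cells at sites of inflammation. Interleukin 6 and leukemia inhibitory factor signal through the shared receptor chain gp130 to JAK kinases and STAT3. CCL2, CCL7, CXCL1 and CXCL12 are chemokines that draw leukocytes or, for CXCL12, guide the migration of granule neuron precursors through its receptor CXCR4. Interleukin 33 is a nuclear alarmin of the IL-1 family, and CSF1 and interleukin 34 are the alternative ligands of CSF1R, the receptor on which microglia depend. Many of these genes are classical targets of the transcription factor NF-kappaB.

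The study cultured CGNs from early postnatal CD1-IGS pups after a Percoll gradient, with cytosine arabinoside given to all cultures to stop the division of other cells. The libraries compared came from 3 cultures given the DMSO vehicle and 3 cultures given GSK-126, and the titles carry DIV3. Per the study's methods the inhibitor was added on that day and RNA was collected at DIV5, and each replicate was a preparation of pooled litters. GSK-126 blocks the methyltransferase EZH2 of the Polycomb repressive complex PRC2, which places the repressive histone mark H3K27me3. Its dose in this experiment was not given in the sources used here. No other genotype or treatment was named for the 6 cultures.

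Reads counted on genes ranged from 7407189 to 13092763 per library, and mitochondrial genes took 1.75% to 2.78% of them. Of all listed reads, 58.7% to 60.7% were not assigned to a gene, whatever the reason. The replicate numbers paired the libraries, since the deviations of libraries with the same number from their group means correlated at 0.487 to 0.634 across genes. Other pairs had 0.0064 or less, though these low values are partly built in, because deviations cancel within each group. The replicates differed in their cell type markers, with replicate 2 lowest for astroglia and highest for granule neurons. Expression of 12 astroglial markers was summed as CPM (TMM-scaled read counts relative to library size). With DMSO and GSK-126 it was 8670 and 8984 in replicate 1, 2915 and 2799 in replicate 2, and 4875 and 4833 in replicate 3. The 14 granule neuron markers summed to 9122 with DMSO and 7334 with GSK-126 in replicate 2, against 4663 to 6752 elsewhere. The fit held the replicate number as a block, since the libraries were paired by the number in their titles. That choice was made with earlier results of these data known, and the edgeR calls below were made with the block. In a fit with no block, edgeR's quasi-likelihood test called 0 genes in either direction, with 665 of 16729 at an unadjusted p under the 0.05 threshold and a smallest adjusted p of 0.386. The coefficient of biological variation was 9.74% with the block and 24.0% with no block. Counts of calls and calls of members that changed without replicate 2 are given beside the results.

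Messenger RNA of the PRC2 subunits was read first, although the inhibitor acts on the enzyme and not on its transcript. Log2 fold changes were −0.13 for Ezh2, 0.04 for Eed and −0.11 for Suz12, and none of the 3 was called (adjusted p = 0.513 or more, edgeR).

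Promoter windows of 4 members are shown because these sequences carry the motif found in 5 of the 7 members with a window. Ptx3, Cxcl1 and Csf1 were called higher in the pair fit below, while Il6 and Lif hold the same motif and were not called. The window of Lif is not printed. Each window runs from 250 bases before to 50 bases after the RefSeq start on GRCm38.p6, 5′ to 3′ in the gene's direction, and capitals mark matches to the NF-kappaB consensus on either strand.
Ptx3, chr3:66219637-66219936 (+ strand): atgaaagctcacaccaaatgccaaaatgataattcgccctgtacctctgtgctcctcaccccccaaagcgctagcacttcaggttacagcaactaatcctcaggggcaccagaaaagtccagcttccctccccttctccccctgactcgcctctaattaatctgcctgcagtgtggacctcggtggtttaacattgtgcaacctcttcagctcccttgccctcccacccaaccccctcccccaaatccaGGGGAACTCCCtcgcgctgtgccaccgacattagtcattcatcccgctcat
Cxcl1, chr5:90890995-90891294 (+ strand): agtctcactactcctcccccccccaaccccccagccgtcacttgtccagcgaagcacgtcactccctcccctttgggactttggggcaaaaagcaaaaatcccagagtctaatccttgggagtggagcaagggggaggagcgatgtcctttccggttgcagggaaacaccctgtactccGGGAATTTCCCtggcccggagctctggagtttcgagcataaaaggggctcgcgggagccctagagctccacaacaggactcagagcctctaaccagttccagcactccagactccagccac
Csf1, chr3:107760420-107760719 (− strand): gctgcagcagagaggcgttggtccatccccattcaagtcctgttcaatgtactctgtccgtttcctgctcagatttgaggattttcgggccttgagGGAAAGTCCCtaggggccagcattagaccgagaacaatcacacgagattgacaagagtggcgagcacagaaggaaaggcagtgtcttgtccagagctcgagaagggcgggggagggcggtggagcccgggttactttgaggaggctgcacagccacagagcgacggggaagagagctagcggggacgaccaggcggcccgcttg
Il6, chr5:30012864-30013163 (+ strand): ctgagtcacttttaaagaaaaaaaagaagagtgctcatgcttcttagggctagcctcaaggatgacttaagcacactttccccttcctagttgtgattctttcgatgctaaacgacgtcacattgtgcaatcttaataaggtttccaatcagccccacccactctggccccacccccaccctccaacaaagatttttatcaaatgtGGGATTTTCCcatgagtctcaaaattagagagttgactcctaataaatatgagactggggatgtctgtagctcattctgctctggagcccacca

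RefSeq windows were found for 7 of the 10 members, and none was listed for Ccl2, Ccl7 and Il34. The NF-kappaB consensus was found in 5 of the 7, against 8.46% of 32851 mouse promoter windows of the same length. The first is a count of members and the second a share of single windows. Many members are known NF-kappaB targets and were chosen as inflammatory factors, so nothing is read from this difference. In Ptx3 a pair of overlapping matches spanned the start itself, from −1 to 10. The Il6 match lay from −44 to −35, that of Cxcl1 from −71 to −61 as overlapping matches on opposite strands, that of Csf1 from −154 to −145 on the reverse strand, and that of Lif from −178 to −169. No match was found in the windows of Cxcl12 and Il33. The AP-1 motif TGANTCA was present in Il6 and Lif (7.81% of all windows), the C/EBP motif TTGCNNAA in Ptx3, Il6 and an alternative start of Il33 (10.8%), and TATAAA in both windows of Il33 (13.6%). The STAT motif TTCNNNGAA was in none of the 7 (8.30% of all windows). Both strands were searched for every motif. The matches describe letters in these windows, and no binding was measured here.

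All 10 members had a fitted fold above 1 with GSK-126, and the median of their log2 values was 0.40, against −0.0056 over the 16729 genes tested. The pair fit called 5 members higher (Ptx3, Ccl2, Ccl7, Cxcl1 and Csf1) and 0 lower. Over all tested genes it called 561 higher (3.35%) and 851 lower (5.09%), so that 39.7% of the calls were higher. This split moved to 51.0% with upper-quartile factors and to 50.2% with total counts, which called the same 5 members. Without replicate 2 the pair fit called 337 genes higher and 496 lower, and 3 members (Ptx3, Il33 and Csf1). Ptx3 and Cxcl1 were higher in every GSK-126 library than in every DMSO library, as were 4.72% of the tested genes, and 4.72% were lower in every one. Because the members were chosen on this contrast, nothing is read from their counts against these shares.

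Ptx3 (ENSMUSG00000027832.5, chromosome 3, 66219910 to 66225805, plus strand, GRCm38) changed most among the members. It stood at 14.3, 13.8 and 18.5 CPM in DMSO replicates 1, 2 and 3 and at 30.9, 39.3 and 34.9 CPM with GSK-126. The groups did not overlap, and the rise was present in each pair, by 2.16-fold, 2.85-fold and 1.88-fold. Group levels were 15.5 ± 2.59 CPM (SD, n = 3) and 35.03 ± 4.20 CPM (SD, n = 3). The fitted log2 fold change was 1.18 with a standard error of 0.14 (adjusted p = 1.8e-05, edgeR with the block). With no block the estimate was 1.17 and the adjusted p was 0.498, whereas DESeq2 with no block gave 6.4e-04. Leaving out replicates 1, 2 or 3 gave log2 values of 1.22, 1.01 and 1.32, and the call was kept each time. The adjusted p of these smaller fits varied widely, from 1.5e-09 without replicate 1 to 0.0013 without replicate 2 (edgeR with the block).

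**Figure D1:**
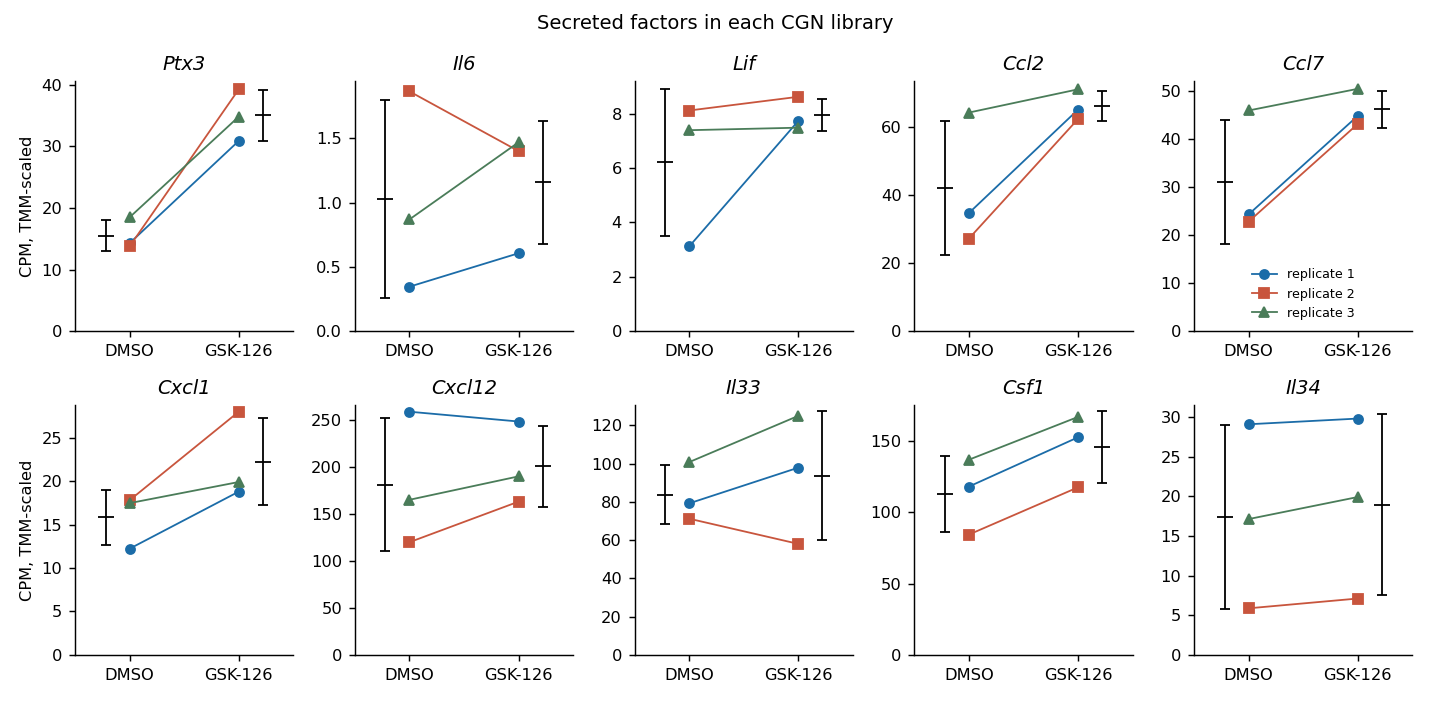
TMM-scaled CPM of each of the 10 factors in the 6 libraries, with lines joining DMSO and GSK-126 libraries of the same replicate number and bars beside them giving the mean ± SD of 3 libraries. Ptx3 rises in every pair without overlap between groups, whereas for Il34 and Cxcl12 the libraries are ordered by replicate number rather than by treatment.

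The gp130 cytokines were the least abundant members. Il6 (chromosome 5, 30013114 to 30019981) had only 3, 20 and 10 counts in the DMSO libraries and 8, 13 and 11 with GSK-126, and its groups overlapped. At this depth a change of Il6 was not detectable, with a log2 value of 0.25 and a standard error of 0.56 (adjusted p = 0.846, edgeR). Without replicate 3 the log2 value was −0.0060.

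Lif (chromosome 11, 4257557 to 4272514) stood at 3.11, 8.11 and 7.39 CPM with DMSO and at 7.73, 8.62 and 7.48 CPM with GSK-126. The low value was that of DMSO replicate 1 alone, and the pair folds were 2.48, 1.06 and 1.01. The fitted log2 value of 0.42 (standard error 0.26, adjusted p = 0.367, edgeR) dropped to 0.07 when replicate 1 was left out.

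Ccl2 and Ccl7, ligands of the monocyte receptor CCR2, are neighbours on chromosome 11. Ccl7 (82045712 to 82047525) begins 8258 bases after the end of Ccl2 (82035571 to 82037453), with 0 annotated genes between them. Ccl2 was at 34.7, 27.2 and 64.2 CPM in the DMSO libraries and at 65.1, 62.4 and 71.1 CPM in the GSK-126 libraries. Ccl7 was at 24.3, 22.8 and 46.0 CPM against 44.9, 43.2 and 50.5 CPM. DMSO replicate 3 was high for both genes and overlapped the GSK-126 range. The pair folds were 1.88, 2.29 and 1.11 for Ccl2 and 1.84, 1.89 and 1.10 for Ccl7, so the third pair moved least. The log2 fold changes were 0.73 with a standard error of 0.14 for Ccl2 and 0.63 with a standard error of 0.14 for Ccl7. Both were called (adjusted p = 0.00201 and 0.00551, edgeR with the block), and with no block each had an adjusted p of 0.953. Without replicate 2 both calls were lost, with log2 values of 0.52 and 0.50 and adjusted p of 0.0600 and 0.0924. DESeq2 with the block kept Ccl7 and not Ccl2 (adjusted p = 0.0103 and 0.130).

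Cxcl1 (chromosome 5, 90891241 to 90893115), a neutrophil chemokine, was at 12.2, 17.8 and 17.5 CPM with DMSO and at 18.8, 28.0 and 19.9 CPM with GSK-126. The groups did not overlap, though GSK-126 replicate 1 lay close above the highest DMSO value. Its log2 fold change was 0.49 with a standard error of 0.15, and its adjusted p of 0.0498 (edgeR) sat at the threshold. The call was lost without replicate 1 (adjusted p = 0.176), without replicate 2 (0.255), with no block (0.953) and with DESeq2 and the block (0.196).

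Cxcl12 (chromosome 6, 117168535 to 117181367) had the highest CPM of the members, at 259, 120 and 165 with DMSO and at 248, 163 and 190 with GSK-126. Its groups overlapped, and replicate 1 was highest in both. The pair folds were 0.960, 1.36 and 1.15, and the log2 value of 0.19 (standard error 0.086, adjusted p = 0.201, edgeR) became a call only without replicate 1, at 0.34 (adjusted p = 0.0439).

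Il33 (chromosome 19, 29925114 to 29960718) moved in opposite directions among the pairs. It was at 79.2, 71.2 and 101 CPM with DMSO and at 97.9, 58.0 and 125 CPM with GSK-126, with pair folds of 1.24, 0.815 and 1.24. The log2 fold change was 0.12 with a standard error of 0.10 (adjusted p = 0.566, edgeR). Without replicate 2, the pair that fell, it was 0.31 and called (adjusted p = 0.0436).

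Of the CSF1R ligands, Csf1 was called and Il34 was not. Csf1 (chromosome 3, 107741048 to 107760469, minus strand) stood at 118, 84.3 and 137 CPM with DMSO and at 152, 117 and 167 CPM with GSK-126. The ranges overlapped, but the pair folds of 1.29, 1.39 and 1.22 were close to each other. Its log2 fold change was 0.38 with a standard error of 0.078 (adjusted p = 0.00366, edgeR with the block, and 0.953 with no block), and the call was kept whichever pair was left out.

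Il34 (chromosome 8, 110741829 to 110805924, minus strand) was at 29.1, 5.87 and 17.1 CPM with DMSO and at 29.8, 7.11 and 19.9 CPM with GSK-126. Replicate 2 was low in both groups, and the pair folds of 1.02, 1.21 and 1.16 gave a log2 value of 0.16 (standard error 0.15, adjusted p = 0.605, edgeR). Its exons overlap 97 bases of genes on the opposite strand, and the strand setting of the counting was not stated. Exons of the other 9 members overlap no annotated gene.

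**Figure D2:**
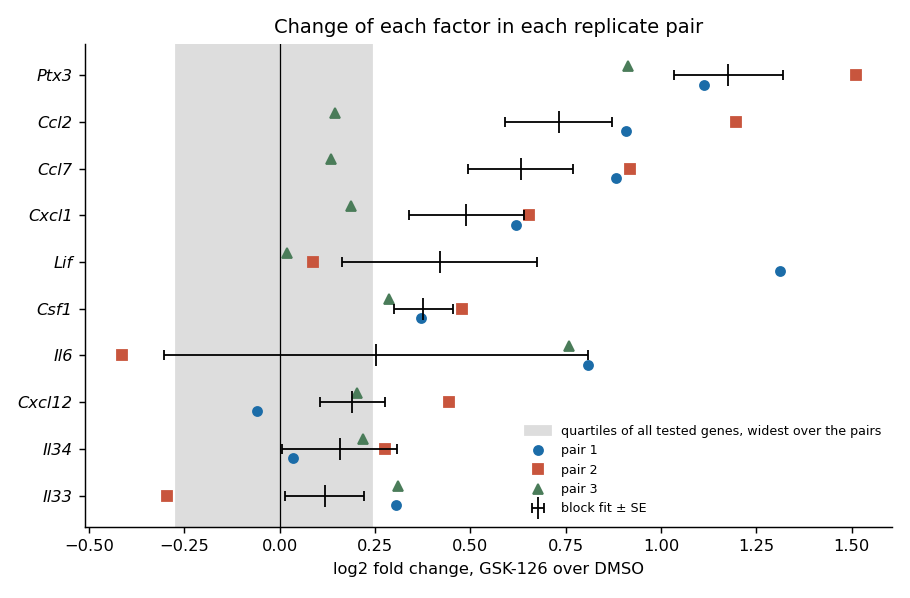
Log2 fold change of GSK-126 over DMSO for each factor within each replicate pair (symbols) and from the fit with the replicate block (bar, ± standard error), over a band from the lowest lower quartile to the highest upper quartile of all tested genes over the 3 pairs. All 3 pairs of Ptx3 and of Csf1 lie right of the band, and the third pair of Ccl2, Ccl7 and Cxcl1 lies within it.

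Scaled to exon length, the members differed widely in level. In DMSO, Ccl7 and Ccl2 led with 38.8 ± 16.2 and 37.0 ± 17.2 CPM per kb of exon (SD, n = 3), followed by Il33 at 29.0 ± 5.30, Cxcl12 at 22.1 ± 8.65 and Csf1 at 21.4 ± 5.03. Il34 at 8.86 ± 5.92, Cxcl1 at 8.45 ± 1.67 and Ptx3 at 5.79 ± 0.965 formed a middle group, and Lif at 1.43 ± 0.621 and Il6 at 0.423 ± 0.318 were lowest. Neighbours in this order had overlapping ranges, except that the lowest Csf1 library (16.0) was above the highest Il34 library (14.8), and the lowest Ptx3 library (5.14) above the highest Lif library (1.86). With GSK-126, Ptx3 was at 13.1 ± 1.56 CPM per kb, a level above the mean of Il34 (9.66) and Cxcl1 (11.9), though its range overlapped theirs. Among the tested genes Ccl7 in DMSO was at percentile 92.5 of this scale, Ptx3 at percentile 48.2 and Il6 at percentile 3.95.

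**Figure D3:**
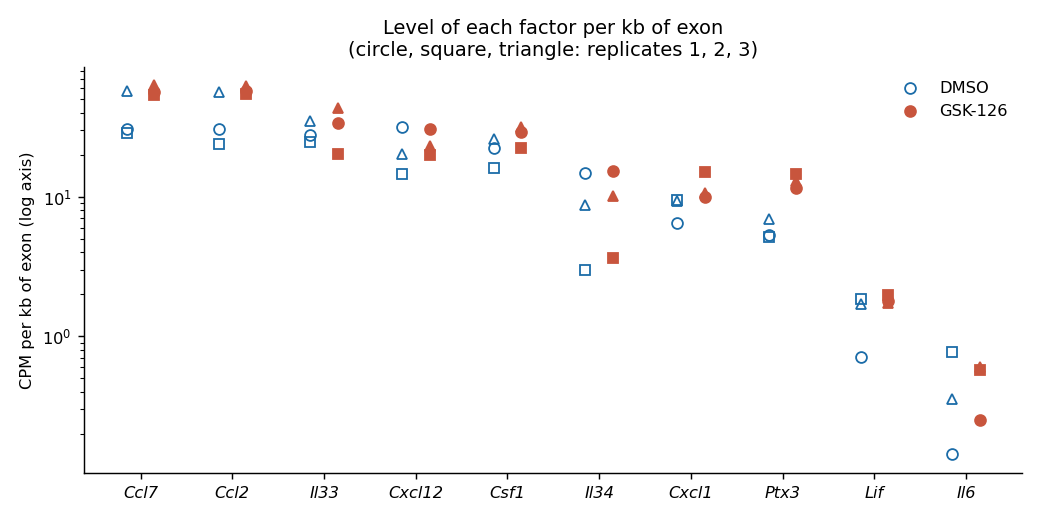
CPM per kb of exon for each factor in the 6 libraries on a log axis, ordered by the DMSO mean, with open symbols for DMSO and filled symbols for GSK-126. The levels run from 38.8 for Ccl7 to 0.423 for Il6 as DMSO means, and Ptx3 moves from 5.79 to 13.1.

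The difference between replicate preparations was also tested for the members, a comparison that did not enter their choice and was added after the data were seen. In the same fit, 6 of 10 members differed between replicate numbers (Ccl2, Ccl7, Cxcl12, Il33, Csf1 and Il34), beside 31.4% of all tested genes. Each adjusted p here belongs to a joint test of any difference among the 3 preparations, and single log2 differences were not tested. Il34 differed most, with mean CPM over both treatments of 29.4, 6.49 and 18.5 in replicates 1, 2 and 3 and a log2 difference of −2.18 between replicates 2 and 1 (adjusted p = 2.3e-07, edgeR). From replicate 1 to replicate 2 the log2 difference was −0.86 for Cxcl12 (joint adjusted p = 1.1e-05), −0.44 for Il33 (3.0e-04) and −0.43 for Csf1 (2.0e-04). Ccl2 and Ccl7 were highest in replicate 3, with log2 differences to replicate 1 of 0.52 and 0.55 (adjusted p = 0.00695 and 0.0105). Ptx3 had mean CPM of 22.6, 26.6 and 26.7 in the 3 preparations and no call (adjusted p = 0.440). Lif, Il6 and Cxcl1 were not called either (adjusted p = 0.245, 0.150 and 0.0693).

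Over the 6 libraries, the genes whose log2 CPM most resembled that of Ptx3 were Cyb5r1 (Pearson's r = 0.983), Edil3 (0.980), Tubb2b (0.978), Ppp1r35 (0.977) and Clip4 (0.975). These were picked as the highest of all tested genes above a mean log2 CPM of 1, the points share libraries and treatment, and no p is given. Each was higher in all GSK-126 libraries, which a choice by likeness to Ptx3 favours. Ppp1r35 and Clip4 were not called (adjusted p = 0.169 and 0.153, edgeR with the block). Tubb2b has a near-identical paralog, Tubb2a, that could share its reads. Among the members, r with Ptx3 was 0.826 for Ccl2, 0.820 for Ccl7, 0.786 for Cxcl1, 0.629 for Csf1, 0.527 for Lif and 0.253 or less for Il6, Cxcl12, Il33 and Il34.

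Genes around these factors were read from the same fit by lists that leave the members out. The lists were written from general knowledge, but with earlier results of these data known. Over all tested genes 3.35% were called higher and 5.09% lower, with a median log2 fold change of −0.0056. These values stand beside every list below, and nothing is read from the counts of a list against them. Of 17 receptors, 12 were tested, 0 were called higher and 1 lower, with a median log2 fold change of 0.24. The calls numbered 2 without replicate 1 and 3 without replicate 3. The one that fell was Ackr1, the atypical receptor that binds CCL2, CCL7 and CXCL1 without signalling to G proteins. It went from 162, 342 and 182 CPM with DMSO to 103, 196 and 111 CPM with GSK-126, a log2 fold change of −0.73 (standard error 0.075, adjusted p = 2.9e-06, edgeR). Its exons share 361 bases with Cadm3 on the same strand, so reads there cannot be assigned with certainty. The signalling receptors named next were chosen after their values were seen. Il6st, which encodes gp130, was at 338 to 469 CPM with DMSO and 352 to 524 CPM with GSK-126, and Csf1r was at 49.97 to 80.4 CPM and 57.0 to 93.3 CPM. Neither was called (adjusted p = 0.154 and 0.406), nor was the CXCL12 receptor Cxcr4 (log2 value 0.27, adjusted p = 0.242). Exons of Csf1r overlap Hmgxb3 on the opposite strand by 873 bases, and the strand setting of the counting was not stated. Ccr2, Cxcr2 and the IL-33 receptor Il1rl1 had too few counts to be tested.

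Among 7 tested ligands of the IL-6 and IL-1 families and TNF, 1 was called higher and 0 lower (median 0.37). Il1rn, the secreted antagonist of the IL-1 receptor, was at 3.69, 4.20 and 27.3 CPM with DMSO and at 10.5, 9.69 and 38.2 CPM with GSK-126. Its rise was 0.95 on the log2 scale (standard error 0.19, adjusted p = 0.00338, edgeR), and replicate 3 was high in both groups. Of 16 tested chemokines other than the members, 2 were called higher and 0 lower (median 0.22). Ccl6 rose from 56.2, 36.8 and 177 to 101, 68.6 and 283 CPM (log2 value 0.80, standard error 0.082, adjusted p = 2.9e-06). Ccl3 rose from 14.2, 10.8 and 41.8 to 27.1, 22.8 and 50.2 CPM (log2 value 0.72, standard error 0.15, adjusted p = 0.00424). Ccl3 and Ccl6 are chemokines of macrophages and microglia, and as for Ccl2 and Ccl7, DMSO replicate 3 was higher than DMSO replicates 1 and 2. The chemokine count was 4 without replicate 1 and 4 without replicate 3.

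Of 7 tested colony stimulating and macrophage growth factors, 3 were called higher and 0 lower (median 0.34), beside 3.35% and 5.09% of all tested genes. These were Tgfb1 (log2 value 0.46, adjusted p = 0.0210), Mif (0.40, 0.00509) and Tgfb2 (0.34, 0.0294), of which Mif has near-identical pseudogene copies that could share reads. The count dropped to 1 without replicate 1 and to 1 without replicate 2.

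Pentraxins and the binding partners of PTX3 moved both ways, with 5 of 14 tested genes called higher and 3 lower (median 0.20). Neuronal pentraxins gather glutamate receptors at synapses, and of the 3 tested members of this group Nptx1 and Nptxr were called lower. Nptx1 went from 210, 485 and 222 CPM with DMSO to 112, 208 and 115 CPM with GSK-126, without overlap (log2 value −1.03, standard error 0.079, adjusted p = 9.3e-08, edgeR). Its receptor-like relative Nptxr, which shares 890 exon bases with Npcd on the same strand, had a log2 value of −0.86 (adjusted p = 2.3e-07). Nptx2, named after its values were seen, had a log2 value of 0.04 (adjusted p = 0.973). Among the higher genes were C1qa and C1qb, subunits of the complement protein that PTX3 binds, with log2 values of 0.48 and 0.43 (adjusted p = 9.6e-04 and 0.0130). C1qa, C1qb and, named after their values were seen, C1qc and Fcgr3 are also expressed by microglia and macrophages. C1qa is counted again in that marker list, whose sum had pair folds of 1.22, 1.30 and 1.20, and the part of these cells was not tested. The short pentraxins Crp and Apcs and the pentraxin Ptx4 had no counts in any library. The 8 calls became 4 without replicate 1 and 5 without replicate 2.

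Of 25 NF-kappaB subunits, kinases and feedback targets, all tested, 3 were called higher and 0 lower, with a median of 0.10. The 3 were Tnfaip2 (log2 value 0.50, adjusted p = 0.00810), Cebpb (0.48, 0.00921) and Icam1 (0.38, 0.0102). The exons of each overlap genes on the opposite strand, by 314, 312 and 511 bases, and the count was 1 without replicate 1 and 1 without replicate 2. The inhibitor gene Nfkbia, an early target of the pathway named after its values were seen, was at 34.9 to 50.3 CPM with DMSO and at 36.6 to 51.5 CPM with GSK-126 (adjusted p = 0.958). None of 18 JAK and STAT3 signalling genes was called by edgeR with the block, with a median of 0.03, and 1 was called without replicate 1 and 1 without replicate 3. Across these 7 lists the fit with no block called 0 genes.

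**Figure D4:**
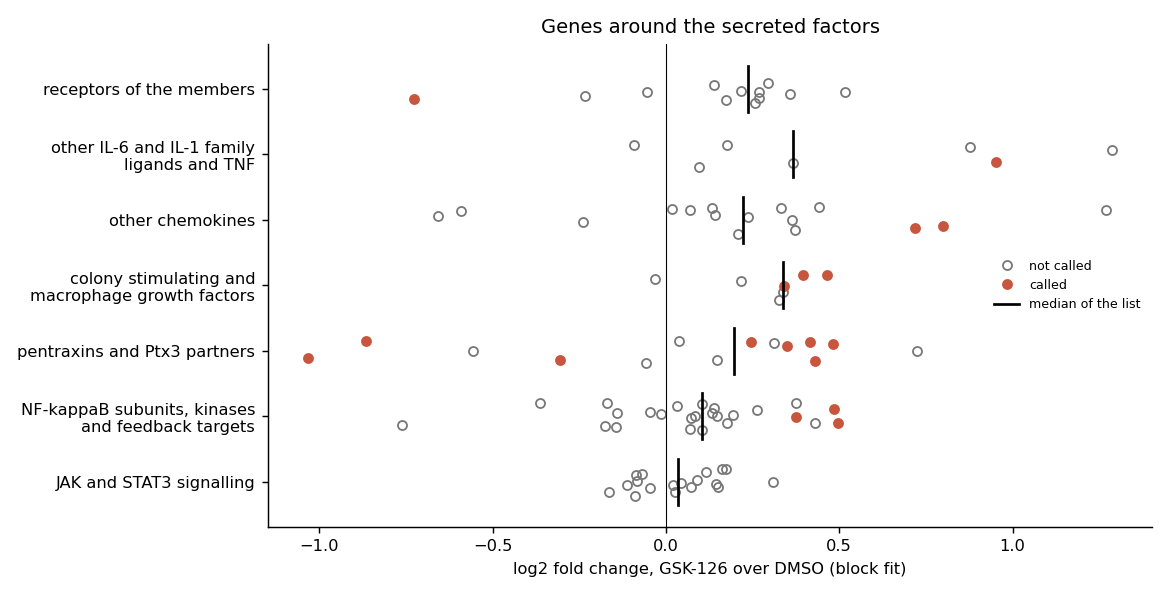
Log2 fold change from the fit with the replicate block for each tested gene of 7 lists around the factors, with filled points for called genes and bars for the list median. Most called genes lie right of 0, and Ackr1, Nptx1, Nptxr and Itih5 lie left of it.

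Markers of 6 cell types were read in the same libraries, since in bulk RNA fewer cells of a type and less RNA per cell cannot be told apart. Their calls stand beside 3.35% of all tested genes called higher and 5.09% called lower. Granule neuron identity was present, with Zic1 at a mean of 1558 CPM and Neurod1 at 694 CPM in DMSO. Of its 14 markers, 8 were called lower and 2 higher (median −0.32), with the largest falls in Gabra6 (log2 value −1.19), Etv1 (−1.17), Cbln3 (−0.90) and Rbfox3 (−0.59). The paper counts Gabra6 among late genes of CGN maturation. For GSK-126 from DIV3 to DIV5 it reported reduced expression of late genes whose promoters lose H3K27me3. Whether granule neurons were fewer was not tested. Calls in either direction numbered 10, and 8 without replicate 2. Their summed CPM ranged from 5819 to 9122 with DMSO and from 4663 to 7334 with GSK-126, with pair folds of 0.801, 0.804 and 0.792.

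The cultures also held RNA of cells that commonly make these factors. Microglia and macrophage markers had 3 of 12 tested genes called higher (2 called without replicate 2) and 0 lower, among them Tyrobp and C1qa. All 12 microglia and macrophage markers had a fitted fold above 1. They summed to 424 to 810 CPM with DMSO and 551 to 984 CPM with GSK-126, with pair folds of 1.22, 1.30 and 1.20, while Trem2 was listed at 0 in every library. Fibroblast and meningeal markers, led by Col1a1 at a mean of 2970 CPM in DMSO, had 2 of 12 called higher (Pdgfrb and Col1a2). Their sums were 7593 to 9867 CPM and 8315 to 10608 CPM, with pair folds of 1.21, 1.05 and 1.08, and the count was 1 whichever replicate was left out. Astroglial markers had 2 of 12 called higher (Gdf10 and S100b) with pair folds of their sum of 1.04, 0.960 and 0.991. Oligodendrocyte markers had 1 of 8 called higher (Mbp, which was not called without replicate 2), and endothelial markers had 0 of 7 called by edgeR with the block (1 without replicate 3). The part of any cell type in the rises of the members was not tested.

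**Figure D5:**
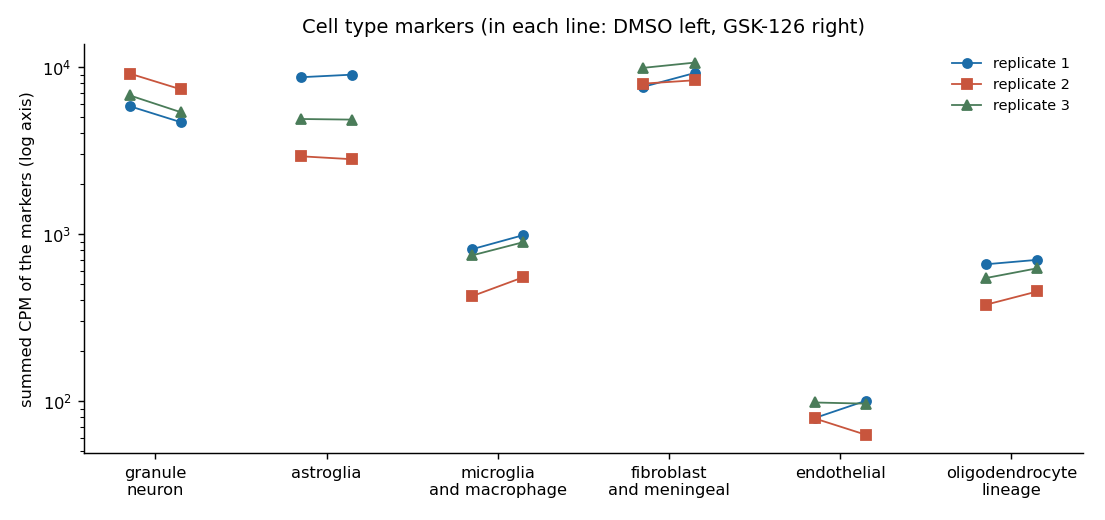
Summed TMM-scaled CPM of the markers of 6 cell types on a log axis, with DMSO left and GSK-126 right for each replicate number. Granule neuron sums are lower with GSK-126 in all 3 pairs (folds 0.801, 0.804 and 0.792) and microglial sums are higher in all 3 (1.22, 1.30 and 1.20), and astroglial sums are lowest in replicate 2.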

How the data were processed

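RNA-seq was measured in 6 libraries of mouse CGN cultures, 3 with DMSO and 3 with GSK-126, grouped by the sample titles. The authors trimmed reads with Trimmomatic 0.38, aligned them to mm10 with STAR 2.7.2b and counted reads on exons of a Gencode GRCm38.p4 annotation with HTSeq, and they deposited raw counts per gene for each library. The strand setting and the Gencode release number were not given in the sources used here. All 55341 symbols matched GENCODE M21, which gave identifiers and coordinates. The 5 closing lines of each table, which name no gene, were left out. The labels give cerebellar tissue and D3, whereas the study's text describes cultures collected at DIV5.

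Counts were fitted in R 4.3.3 with edgeR 4.0.16 (TMM, filterByExpr, quasi-likelihood test, Benjamini-Hochberg adjustment over 16729 genes, calls at an adjusted p under 0.05), with the replicate number as a block. Pairing was checked in log2 CPM, where deviations from the group mean correlated at 0.561, 0.634 and 0.487 for libraries with the same number. Deviations cancel within a group, which by itself pushes the values of other pairs down. The members, the gene lists and the choice of the block as the leading fit were made with earlier results of these data known, including that a fit with no block makes no calls. The block leaves 2 residual degrees of freedom, and fewer with a pair left out. Calls kept or lost in fits without a pair are therefore weak evidence. A p-value of the block fit sets the change within pairs against the spread that remains once differences between preparations are removed. It speaks only for these 3 preparations. DESeq2 1.42.0 and other scalings, filters and left-out replicates were alternatives. Genes named from a list are up to 4 called genes with the largest absolute log2 fold change, with others, such as markers given for their level or for having no counts, chosen after their values were seen. CPM values are TMM-scaled. No library was a copy of another. The value of 1 marker gene is not reported here.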

Additional observations from a re-analysis of the deposited data

How the results depend on the processing

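The outcome rests on the replicate block. With no replicate block, edgeR called 0 genes higher, 0 lower and 0 members, against 561, 851 and 5 with it, and it called 0 genes in each of the 13 lists. DESeq2 with no replicate block called 19 genes higher and 2 lower, 1 member (Ptx3) and 0 genes in every list. DESeq2 with the replicate block called 351 genes higher, 600 lower, 3 members (Ptx3, Ccl7 and Csf1), 1 colony stimulating or growth factor and 1 astroglial marker. Under upper-quartile factors, total counts, no filter on low counts and at least 10 counts in every library, the same 5 members were called, and receptors had 2 calls in each of these 4 settings, against 1. With no filter on low counts 1 endothelial marker was called. The median of all genes moved to 0.029 with upper-quartile factors and 0.028 with total counts. The count of genes that differ between replicate numbers ranged from 5089 to 5544 under these 4 settings, and that of members stayed at 6.

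With 1 replicate pair left out at a time, calls ranged from 337 to 558 higher and from 496 to 719 lower over all genes, from 3 to 5 for members, 1 to 3 for receptors, 2 to 4 for chemokines, 1 to 2 for growth factors, 4 to 7 for pentraxins and partners, 1 to 3 for NF-kappaB genes and 0 to 1 for JAK and STAT3 genes. The same range was 1 to 1 for fibroblast, 0 to 1 for endothelial and 0 to 1 for oligodendrocyte markers. The direction turned for Il6 alone, with log2 values of −0.0060 to 0.13 and the lowest without replicate 3. Il6 could not be fitted without replicate 2 or with at least 10 counts in every library, and DESeq2 gave it, and with the block Lif, no adjusted p. Counts of 3 to 20 per library limit what can be said of Il6. The cause of these changes was not tested.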
